A study of Mus musculus with 23 samples.

Results

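Liver RNA was compared between 8 libraries from mice injected with either of 2 recombinant secreted proteins, EPDR1 (ependymin-related protein 1) or FCN2 (ficolin-2), taken as 1 group, and 4 libraries from mice injected with vehicle. The 8 libraries were those labelled EPDR1 (4) and FCN2 (4) in batch 2, of 23 libraries in the study, and the vehicle libraries were the 4 of the same batch; the other 11 libraries entered no main comparison. The mice were of the inbred strain C57BL/6J. No altered allele, sex or age was given for any of the 3 groups, and the composition of the vehicle was not given either. Each mouse got 3 injections of its protein, 1 day apart, at 1 µg for each g of body weight. Pooling 2 proteins compares the mean of the 8 libraries with that of the 4 vehicle libraries. A gene that answered to 1 protein is diluted in the pooled mean but can still pass. Both proteins were set against the same 4 vehicle libraries, so an unusual vehicle library moves both values in the same direction.

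EPDR1 is a secreted glycoprotein related to the ependymins, first known from fish brain. FCN2 is a ficolin, a soluble lectin that binds sugars on microbes and starts the lectin pathway of complement. The liver makes most plasma proteins, so hepatocytes carry a heavy load of folding work in the endoplasmic reticulum. When that load rises, the transcription factors XBP1 and ATF6 switch on chaperones and the degradation machinery of the endoplasmic reticulum through a promoter motif, the endoplasmic reticulum stress response element. The liver also answers inflammation: cytokines such as interleukin-6 act on hepatocytes through STAT3 to raise acute phase proteins, and SOCS3 limits that signal. The aryl hydrocarbon receptor, a ligand-activated transcription factor that pairs with ARNT, induces genes such as Cyp1a1, Cyp1a2, Nqo1 and Tiparp.

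Reads counted to genes numbered 3005739 to 4180013 per EPDR1 library, 2735871 to 7060707 per FCN2 library and 2517701 to 21892416 per vehicle library, where replicate 2 was the deepest of the 12. Levels are given in CPM, the count scaled to a common depth with library sizes adjusted by the trimmed mean of M-values. Hepatocyte markers summed to 92600 to 119000 CPM in the EPDR1, 113000 to 124000 CPM in the FCN2 and 94700 to 106000 CPM in the vehicle libraries, so the tissue label and the markers matched. Samples are numbered within a group, and nothing states that the numbers are separate animals; the tests therefore speak of variation among libraries, part of which may be technical. In whole tissue, fewer cells of a type and less RNA per cell cannot be told apart.

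Across 10454 tested genes, 1 gene passed in the pooled comparison (edgeR quasi-likelihood test, Benjamini-Hochberg adjusted p below 0.05), which is 0.00957% of the genes tested. That gene was Derl3, which was lower in the injected livers, and no gene was higher. A further 8 genes had an adjusted p between 0.05 and 0.1, and 1922 genes had an unadjusted p under 0.05. DESeq2 on the same libraries called 97 genes (0.928%), of which 54 lay above vehicle (0.517%) and 43 below it (0.411%), and limma-voom gave 0. Leaving out 1 library at a time, edgeR gave between 0 calls (without vehicle replicate 2) and 29 (without EPDR1 replicate 2). The comparison is therefore described below gene by gene, with the values in each library, since the number of called genes depended on the tool.

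Derl3 encodes a derlin, a membrane protein of the endoplasmic reticulum that helps move misfolded proteins out for degradation and is a target of XBP1 (ENSMUSG00000009092, GRCm38 chromosome 10, 75893413 to 75895941, plus strand). The promoter is printed first with those of Creld2 and Hspa5, 2 other genes of the same organelle, because all 3 hold the endoplasmic reticulum stress response element. The windows run from 250 bases before to 50 bases after the gene's start (RefSeq, GRCm38.p6, written 5′ to 3′ on the gene's strand), and capitals mark the element.
Derl3 promoter, chr10:75893148-75893447, plus strand: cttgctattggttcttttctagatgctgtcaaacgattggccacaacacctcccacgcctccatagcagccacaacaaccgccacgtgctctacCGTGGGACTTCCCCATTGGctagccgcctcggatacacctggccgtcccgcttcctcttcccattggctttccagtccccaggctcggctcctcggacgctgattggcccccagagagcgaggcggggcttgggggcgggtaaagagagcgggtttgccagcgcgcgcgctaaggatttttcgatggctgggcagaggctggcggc
Creld2 promoter, chr15:88819396-88819695, plus strand: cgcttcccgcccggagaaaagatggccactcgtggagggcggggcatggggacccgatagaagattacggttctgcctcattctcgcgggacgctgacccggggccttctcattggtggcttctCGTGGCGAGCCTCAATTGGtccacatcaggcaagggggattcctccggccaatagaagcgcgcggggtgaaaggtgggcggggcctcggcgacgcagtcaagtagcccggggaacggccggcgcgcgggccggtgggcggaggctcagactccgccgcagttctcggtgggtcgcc
Hspa5 promoter, chr2:34771840-34772139, plus strand: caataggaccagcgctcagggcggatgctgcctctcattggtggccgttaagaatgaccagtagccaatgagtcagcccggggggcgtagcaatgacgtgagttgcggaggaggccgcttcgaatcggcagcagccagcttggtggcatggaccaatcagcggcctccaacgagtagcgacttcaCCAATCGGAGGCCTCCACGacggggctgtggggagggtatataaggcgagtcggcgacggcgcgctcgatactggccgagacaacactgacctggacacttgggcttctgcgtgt
The element searched was CCAAT and CCACG with 9 bases of any kind between them, on both strands. Also searched were a second form (ATTGG, 1 base of any kind, CCACG), the core TGACGTG of the unfolded protein response element, the core GCGTG of the xenobiotic response element and the NF-kB element (GGG, 2 bases of any kind, TTTCC). The stress response element read on the minus strand in the Derl3 and Creld2 windows, with its leftmost base 156 and 126 bases before the start, and on the plus strand in the Hspa5 window, 65 bases before the start. It overlapped none of the other motifs searched in these windows. Of 32817 promoter windows of the same length, 39 held it (0.119%), against 0.037% for the second form, 2.01% for TGACGTG and 32.4% for GCGTG. A match is a description of the letters, not a measured binding site.

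Derl3 had 1.62, 2.098, 1.41 and 0.9903 CPM in the EPDR1 livers and 0.8799, 0.756, 1.401 and 0.659 CPM in the FCN2 livers, against 7.26, 14.3, 2.72 and 4.34 CPM in the vehicle livers. All 8 injected livers lay below all 4 vehicle livers, and vehicle replicate 2 was the highest of the 12. The filter on low counts needs 4 libraries above a level that no injected liver reached for Derl3. The gene was thus tested only through the 4 vehicle livers. Its lack of overlap followed from that and is no separate support, with or without vehicle replicate 2. The pooled log2 fold change was -2.72 ± 0.37 (SE; edgeR adjusted p = 0.00604). It was -2.38 in the EPDR1 livers alone (edgeR adjusted p = 0.29) and -3.13 in the FCN2 livers alone (edgeR adjusted p = 0.00393), against the same 4 vehicle livers. Derl3 is a low gene here, with at most 7 reads in any injected library and 31, 333, 7 and 13 reads in the vehicle libraries. Vehicle replicate 3 had as many reads as EPDR1 replicates 1 and 2, and lay above them in CPM only through its lower depth. Without vehicle replicate 2 the fold change was -2.01 and the call was lost (edgeR adjusted p = 0.18), although the 8 injected livers still lay below the other 3 vehicle livers. With each library's trend with GC content and gene length removed, it was -2.42 (edgeR adjusted p = 0.0219).

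Of 22 tested genes for chaperones and degradation in the endoplasmic reticulum, Derl3 passed and was lower, 16 had a negative pooled fold change and 6 a positive one. Their median log2 fold change was -0.227, against 0.017 over all tested genes. Next to Derl3 the smallest p-values belonged to Hyou1, Sdf2l1 and Creld2, none of which passed. Hyou1, a chaperone of the endoplasmic reticulum lumen, had 159.9, 116, 138 and 100.4 CPM in the EPDR1 livers and 85.1, 154, 93.04 and 54.7 CPM in the FCN2 livers, against 199, 354, 176 and 149.6 CPM in the vehicle livers. Vehicle replicate 2 was the highest, and 1 FCN2 and 1 EPDR1 library reached the level of the lowest vehicle library. Its pooled log2 fold change was -0.97 ± 0.27 (edgeR adjusted p = 0.133), and DESeq2 called it lower (adjusted p = 0.043). Without vehicle replicate 2 the fold change was -0.64 (edgeR adjusted p = 0.462). Sdf2l1, a partner of the chaperone BiP, had 57.99, 23.4, 32.95 and 31.4 CPM in the EPDR1 livers and 27.9, 25.3, 28.02 and 13.4 CPM in the FCN2 livers, against 41.2, 90.2, 47.3 and 49.8 CPM in the vehicle livers, a log2 fold change of -0.95 ± 0.30 (edgeR adjusted p = 0.161). The groups overlapped through EPDR1 replicate 1, and the fold change was -0.62 without vehicle replicate 2 (edgeR adjusted p = 0.492).

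Creld2, a secreted protein of the same stress response, had 91.96, 41.7, 61.4 and 44.9 CPM in the EPDR1 livers and 51.5, 60.1, 42.6 and 23.3 CPM in the FCN2 livers, against 50.6, 198, 61.7 and 86.5 CPM in the vehicle livers. Vehicle replicate 2 stood above every other library, and the remaining vehicle livers overlapped the injected ones. The log2 fold change was -0.95 ± 0.38 (edgeR adjusted p = 0.228), and -0.35 without vehicle replicate 2. Syvn1, the ubiquitin ligase that marks misfolded proteins for removal, had 57.99, 39.6, 29.3 and 33.01 CPM in the EPDR1 livers and 21.3, 26.1, 31.1 and 10.3 CPM in the FCN2 livers, against 40.1, 144, 36.9 and 36.7 CPM in the vehicle livers, with the same library far above the rest. Its log2 fold change was -1.10 ± 0.46 with all libraries (edgeR adjusted p = 0.244) and -0.30 without vehicle replicate 2. Hspa5, which encodes BiP, the main chaperone of the compartment, had 1633, 1335, 1444 and 1361 CPM in the EPDR1 livers and 1477, 2183, 1507 and 1378 CPM in the FCN2 livers, against 1224, 2914, 1321 and 1358 CPM in the vehicle livers. Its log2 fold change was -0.15 ± 0.20 and turned to 0.23 without vehicle replicate 2, neither past the threshold. Without that library the median of the 22 genes was -0.034, with 13 below 0 and 9 above. With all libraries and the GC and length trend removed it was -0.25, with 20 below 0 and 2 above. The plot of endoplasmic reticulum genes by library shows how far each gene rested on vehicle replicate 2.

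**Figure D1:**
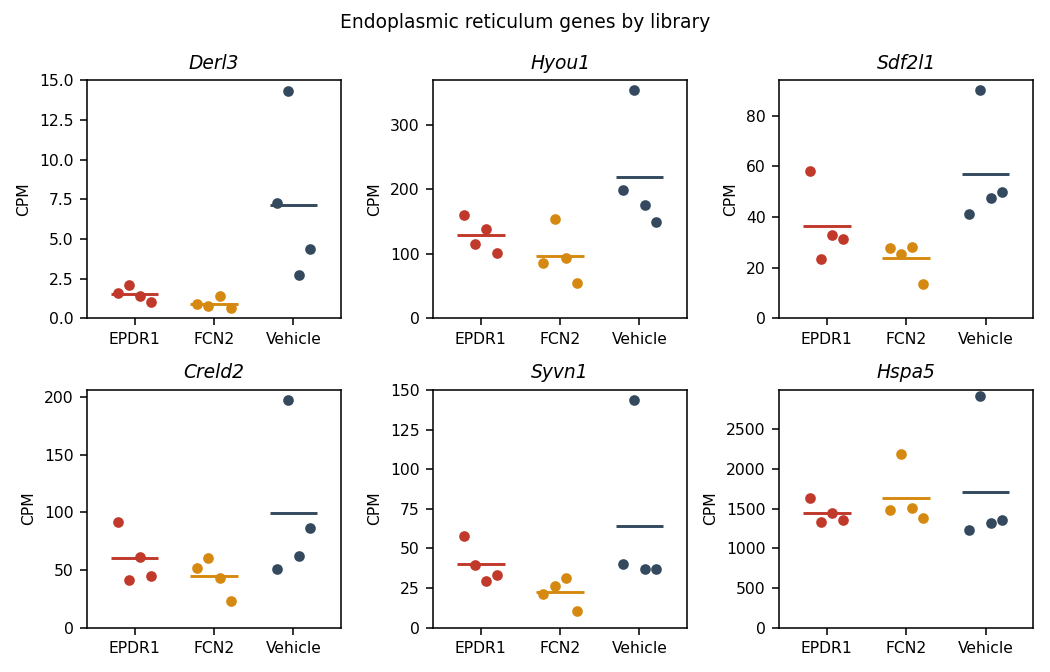
CPM (linear axis) of 6 endoplasmic reticulum genes in the 4 EPDR1, 4 FCN2 and 4 vehicle libraries; points are libraries, in replicate order within a group, and bars are group means. Derl3 is below all vehicle libraries in all 8 injected ones, while Creld2, Syvn1 and Hspa5 have vehicle replicate 2 far above the other vehicle libraries, at 198, 143.7 and 2914 CPM.

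The 15 tested genes with the element in their promoter window had a median pooled log2 fold change of -0.209, 10 of them below 0 and 5 above. Derl3 alone among them passed. The median was -0.092 without vehicle replicate 2. With all libraries and the GC and length trend removed it was -0.236, with 13 below 0 and 2 above. Those genes included Calr (-0.27 ± 0.13), Pdia6 (-0.25 ± 0.12) and Dnajc3 (-0.21 ± 0.13), all folding factors of the compartment, and Canx (0.14 ± 0.15) and Hsp90b1 (0.03 ± 0.15), which lay on the other side of 0. All of these, and Derl3, Creld2, Syvn1 and Hspa5, were also among the 22 genes for chaperones and degradation. The medians of both sets thus share genes and are not separate support. The second form was found in the windows of 9 tested genes, with a median of -0.121 and no call. Among them was Herpud1, a degradation factor of the same compartment, at -0.12 ± 0.20.

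Of the 8 genes with an adjusted p between 0.05 and 0.1, 7 are described. Tiparp was named by rule, and the others were chosen after their values were seen. In all 8 the injected and the vehicle libraries did not overlap, and 3 were higher and 5 lower. No overlap between the 8 and the 4 libraries was found for 99 genes in the higher direction (0.947% of those tested) and for 123 in the lower direction (1.18%), together 2.12%. With every library thinned to one depth these counts were 84 (0.804%) and 97 (0.928%).

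Wsb1 encodes a substrate receptor of a ubiquitin ligase (GRCm38 chromosome 11, 79239372 to 79254671). It had 93.1, 90.2, 64.8 and 129 CPM in the EPDR1 livers and 142, 69.2, 129 and 75.1 CPM in the FCN2 livers, against 43.1, 36.7, 43.5 and 44.1 CPM in the vehicle livers. The 4 vehicle livers lay within a narrow range, below the lowest injected one. The pooled log2 fold change was 1.25 ± 0.21 (edgeR adjusted p = 0.0511), from 1.18 in the EPDR1 livers and 1.33 in the FCN2 livers. With DESeq2 size factors in edgeR the adjusted p was 0.0499, and DESeq2 itself called it at 6.62e-05.

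Klf6, a zinc finger transcription factor induced early after injury or growth signals (GRCm38 chromosome 13, 5861482 to 5870394), had 33.3, 20.1, 27.9 and 25.8 CPM in the EPDR1 livers and 26.7, 17.4, 22.98 and 24.8 CPM in the FCN2 livers, against 10.3, 11.1, 15.1 and 16.4 CPM in the vehicle livers. Every injected liver was above every vehicle liver. The log2 fold change was 0.96 ± 0.18 (edgeR adjusted p = 0.0721; DESeq2 adjusted p = 0.00199). Tiparp, an ADP-ribosyltransferase that is induced by the aryl hydrocarbon receptor and represses it (GRCm38 chromosome 3, 65528410 to 65555518), had 21.5, 14.98, 36.6 and 12.2 CPM in the EPDR1 livers and 21.1, 18.9, 26.3 and 26.1 CPM in the FCN2 livers, against 8.67, 10.4, 11.2 and 6.68 CPM in the vehicle livers. Its promoter window held 1 GCGTG core. At least 1 such core lay in 49.957% of the windows of tested genes, those of Klf6, Arl4d and Wdtc1 among them. For Tiparp the groups did not overlap either, and its log2 fold change was 1.25 ± 0.24 (edgeR adjusted p = 0.0721; DESeq2 adjusted p = 0.0029).

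Arl4d, a small GTPase of the ARF family, had 5.54, 10.8, 4.79 and 8.58 CPM in the EPDR1 livers and 11.9, 5.29, 7.57 and 5.71 CPM in the FCN2 livers, against 16.9, 16.7, 13.97 and 18.04 CPM in the vehicle livers (log2 fold change -1.11 ± 0.22, edgeR adjusted p = 0.0721). Slc39a4, the zinc importer ZIP4, had 20.3, 20.1, 17.7 and 11.9 CPM in the EPDR1 livers and 16.1, 13.99, 12.9 and 14.5 CPM in the FCN2 livers, against 33.5, 24.6, 27.9 and 28.7 CPM in the vehicle livers. The log2 fold change was -0.83 ± 0.15, with the same adjusted p. Both genes were thus lower in all 8 injected livers. B4galnt1, a glycosyltransferase of ganglioside synthesis, had 11.1, 13.2, 13.8 and 11.9 CPM in the EPDR1 livers and 10.7, 9.83, 11.5 and 9.44 CPM in the FCN2 livers, against 25.3, 22.8, 17.9 and 14.03 CPM in the vehicle livers (log2 fold change -0.84 ± 0.16). Wdtc1, a substrate adaptor linked to fat storage, had 30.04, 35.1, 27.04 and 30.4 CPM in the EPDR1 livers and 23.9, 29.9, 26.1 and 14.5 CPM in the FCN2 livers, against 62.8, 50.2, 43.1 and 42.4 CPM in the vehicle livers (log2 fold change -0.89 ± 0.17). Both shared the edgeR adjusted p of 0.0721, and in each the lowest vehicle library lay above the highest injected one, by less in B4galnt1. The 5 lower genes of this group and Derl3 had a GC content above the median of tested genes (49.3%), and the 3 higher ones had a GC content below it. All 9 fold changes were smaller in size once the GC and length trend was removed, and Derl3 alone of the 9 then passed.

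**Figure D2:**
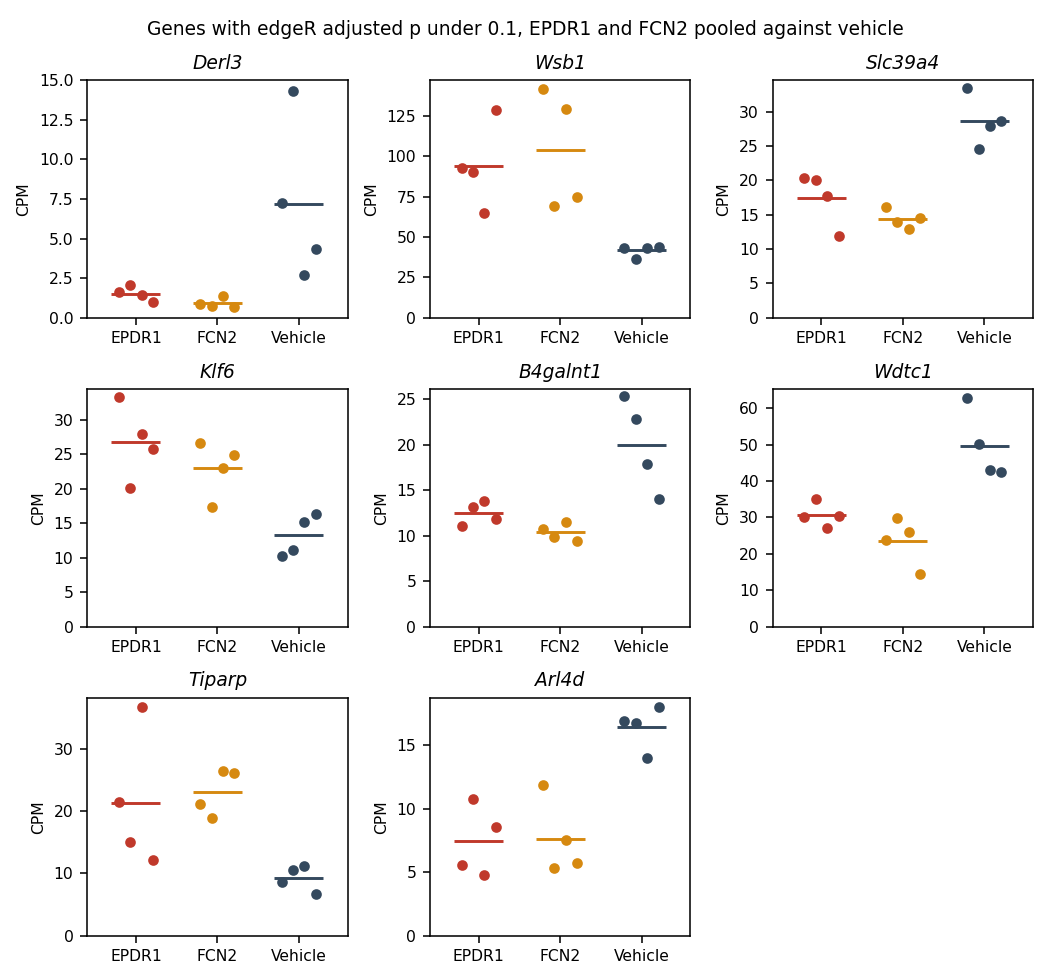
CPM (linear axis from 0) of 8 genes with an edgeR adjusted p under 0.1, in the 4 EPDR1, 4 FCN2 and 4 vehicle libraries; points are libraries, in replicate order within a group, and bars are group means. In each panel all 8 injected libraries lie on 1 side of all 4 vehicle libraries.

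Aryl hydrocarbon receptor genes formed a list whose members were named by rule, and its member Tiparp was among the genes nearest to the threshold. Of the 18 listed, 10 were measured well enough to be tested, 0 passed, 4 were above 0 and 6 below, and the median log2 fold change was -0.036. Ahr, the receptor itself, had 64.5, 60.2, 76.6 and 40.3 CPM in the EPDR1 livers and 61.1, 49.5, 66.4 and 71.8 CPM in the FCN2 livers, against 38.2, 44.8, 45 and 43.4 CPM in the vehicle livers. The EPDR1 libraries reached into the vehicle range through replicate 4. Its log2 fold change was 0.52 ± 0.15 (edgeR adjusted p = 0.133). Arnt, its partner, had 40.7, 31.8, 38.9 and 38.95 CPM in the EPDR1 livers and 37.2, 33.6, 49.9 and 44.4 CPM in the FCN2 livers, against 37.02, 28.6, 36.5 and 24.4 CPM in the vehicle livers, a log2 fold change of 0.33 ± 0.15 (edgeR adjusted p = 0.25) with overlapping groups. Members lay on both sides of 0: beside Tiparp, Ahr and Arnt, Socs2 was above it (1.24 ± 0.91), and 6 were below. Cyp1a2, the P450 enzyme of this pathway in liver, had 655, 386, 465.9 and 240.3 CPM in the EPDR1 livers and 224, 226, 364 and 399 CPM in the FCN2 livers, against 443, 398, 417 and 543 CPM in the vehicle livers (log2 fold change -0.28 ± 0.25, edgeR adjusted p = 0.55). Nqo1, a quinone reductase, had a log2 fold change of -0.01 ± 0.31, and its sign depended on which library was left out. No call was made for Ugt1a6a (-0.43 ± 0.30), Tgm2 (-0.25 ± 0.18) or Xdh (-0.10 ± 0.15).

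Immediate early genes, which cells switch on within minutes of a stimulus, had the highest median of the lists drawn for signalling and stress in the plot of gene lists. Of 14 tested, 11 were above 0 and 3 below, and the median log2 fold change was 0.724. None passed in edgeR, while DESeq2 called Klf6 and Btg2 higher. Btg2, an antiproliferative early gene, had 25.6, 9.59, 46.2 and 20.1 CPM in the EPDR1 livers and 24.5, 14.4, 54.6 and 17.1 CPM in the FCN2 livers, against 9.84, 10.8, 15.1 and 6.01 CPM in the vehicle livers. EPDR1 replicate 2 and FCN2 replicate 2 lay within the vehicle range, and the log2 fold change was 1.35 ± 0.46 (edgeR adjusted p = 0.184; DESeq2 adjusted p = 0.0441). Zfp36, which promotes decay of cytokine messenger RNAs, had 114, 77.3, 65.6 and 69.3 CPM in the EPDR1 livers and 74.1, 58.6, 59.7 and 80.1 CPM in the FCN2 livers, against 39.6, 52.8, 50.05 and 57.8 CPM in the vehicle livers. Its groups did not overlap, and its log2 fold change was 0.58 ± 0.17 (edgeR adjusted p = 0.133). Gadd45a, a stress-induced growth arrest gene, had 14.1, 2.697, 11.3 and 5.94 CPM in the EPDR1 livers and 5.43, 7.56, 9.25 and 10.8 CPM in the FCN2 livers, against 2.11, 2.97, 6.98 and 2.004 CPM in the vehicle livers, a log2 fold change of 1.36 ± 0.39 (edgeR adjusted p = 0.133) with overlap. Others of the list, such as Jun (0.71 ± 0.29), Myc (1.11 ± 0.55) and Egr1 (0.79 ± 0.72), had wide errors, and Dusp1 (-0.65 ± 0.27) lay below 0. The list's median was 0.714 without vehicle replicate 2 and 0.911 with the GC and length trend removed.

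Cytokine signalling genes also lay mostly above 0, with no call in edgeR. Of 22 tested, 18 were above 0 and 4 below, with a median log2 fold change of 0.254, and 0.562 without vehicle replicate 2. The promoter of Cxcl1, the chemokine with the highest fold change of this list, is shown because it holds 2 NF-kB elements, searched on both strands as above and shown in capitals.
Cxcl1 promoter, chr5:90890995-90891294, plus strand: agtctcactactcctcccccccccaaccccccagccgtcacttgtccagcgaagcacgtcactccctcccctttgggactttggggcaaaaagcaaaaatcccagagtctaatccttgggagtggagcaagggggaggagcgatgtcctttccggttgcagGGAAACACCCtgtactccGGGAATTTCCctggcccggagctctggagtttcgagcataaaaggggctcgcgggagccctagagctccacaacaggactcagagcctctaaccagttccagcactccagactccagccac
The 2 elements do not overlap each other or the other motifs searched. Among all promoter windows 1.63% held at least 1, and the 165 tested genes with one had a median log2 fold change of 0.031.

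Cxcl1, which draws in neutrophils, had 694, 235, 677 and 448 CPM in the EPDR1 livers and 293, 295, 385 and 476 CPM in the FCN2 livers, against 12.7, 142, 284 and 33.1 CPM in the vehicle livers. The vehicle livers spanned a wide range, and replicate 3 lay above 1 EPDR1 liver and below the other 7 injected ones. The log2 fold change was 1.90 ± 0.72 (edgeR adjusted p = 0.216). Osmr, a receptor subunit for oncostatin M, had 9.24, 6.59, 10.7 and 11.9 CPM in the EPDR1 livers and 7.48, 4.92, 6.17 and 5.49 CPM in the FCN2 livers, against 1.64, 4.34, 5.43 and 2.004 CPM in the vehicle livers. Vehicle replicate 3 lay above the lowest FCN2 liver, and the log2 fold change was 1.16 ± 0.31 (edgeR adjusted p = 0.132; DESeq2 adjusted p = 0.0359). Nfkbiz, a nuclear partner of NF-kB, had 32.1, 18.9, 23.9 and 15.8 CPM in the EPDR1 livers and 21.7, 16.3, 17.6 and 22.4 CPM in the FCN2 livers, against 10.1, 14.1, 18.2 and 12.02 CPM in the vehicle livers, a log2 fold change of 0.66 ± 0.20 (edgeR adjusted p = 0.135). Its groups overlapped through vehicle replicate 3. Socs3, the feedback inhibitor of STAT3 signalling, had 67, 29.97, 58.6 and 27.7 CPM in the EPDR1 livers and 15.4, 24.6, 24.9 and 39.3 CPM in the FCN2 livers, against 5.86, 21.7, 25.99 and 6.68 CPM in the vehicle livers (log2 fold change 1.22 ± 0.50, edgeR adjusted p = 0.232). The 4 EPDR1 livers were all above the vehicle range, and the FCN2 livers lay within or above it. Neutrophil markers (9 genes) summed to 14.7 to 30.7 CPM in the EPDR1 and 11.7 to 17.4 CPM in the FCN2 libraries. In the vehicle libraries they summed to 3.05 to 17.1 CPM, and none of the 9 was at 0 in all 12 libraries. Of these, 3 were tested and 0 passed, among them S100a8 (1.15 ± 0.39), which had 5.54, 4.495, 8.17 and 6.27 CPM in the EPDR1 livers and 6.01, 4.92, 5.61 and 4.39 CPM in the FCN2 livers, against 0.703, 2.36, 7.37 and 1.002 CPM in the vehicle livers. The part of these cells in the cytokine values was not tested.

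Acute phase proteins, the plasma proteins that hepatocytes raise in inflammation, did not pass either. Of 26 tested, 19 were above 0 and 7 below, with a median log2 fold change of 0.193, and the medians of the separate comparisons were 0.37 for EPDR1 and -0.153 for FCN2 against the same vehicle libraries. Fgb, the fibrinogen beta chain, had 9861, 7092, 11720.0 and 9953 CPM in the EPDR1 livers and 9844, 9115, 11040.0 and 8397 CPM in the FCN2 livers, against 8274, 6780.0, 9148 and 5681 CPM in the vehicle livers (log2 fold change 0.37 ± 0.16, edgeR adjusted p = 0.232). Fgg, the gamma chain, had 7818, 6177, 9542 and 8322 CPM in the EPDR1 livers and 8006, 7311, 9778 and 6654 CPM in the FCN2 livers, against 6788, 5812, 7511 and 4561 CPM in the vehicle livers (0.37 ± 0.16, edgeR adjusted p = 0.237). In both, the vehicle range reached into the injected one, and after the GC and length trend was removed the values were 0.21 and 0.19. Serpina3m, a plasma serpin of a multigene family whose members may share reads, had 172, 233, 409 and 175 CPM in the EPDR1 livers and 197, 287, 216 and 176 CPM in the FCN2 livers, against 214, 163, 206 and 129.9 CPM in the vehicle livers (0.39 ± 0.22, edgeR adjusted p = 0.353, and 0.22 without EPDR1 replicate 3). The serum amyloid gene Saa1, a close copy of Saa2 whose split of reads is uncertain, had 2108, 2167, 3829 and 1943 CPM in the EPDR1 livers and 1922, 326, 1138 and 729 CPM in the FCN2 livers, against 436, 517, 3929 and 621 CPM in the vehicle livers. Vehicle replicate 3 was the highest of all 12 libraries, the 4 EPDR1 livers were above the other 3 vehicle livers, and the FCN2 livers were spread across them. Its log2 fold change was 0.37 ± 0.74 (edgeR adjusted p = 0.82), and 1.75 without vehicle replicate 3 (edgeR adjusted p = 0.268). Leaving out any of EPDR1 replicate 3 and vehicle replicates 1, 2 and 4 gave 0.06 to 0.12. Lcn2, a siderophore-binding acute phase protein, had 135, 56.9, 214 and 31.4 CPM in the EPDR1 livers and 40.6, 7.18, 32.2 and 18 CPM in the FCN2 livers, against 15.5, 13.5, 137 and 22.4 CPM in the vehicle livers, with the same vehicle library high. Its log2 fold change of 0.59 ran from 0.05 without EPDR1 replicate 3 to 2.01 without vehicle replicate 3. The median over the 26 genes was 0.438 without vehicle replicate 3 and 0.121 without vehicle replicate 2.

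**Figure D3:**
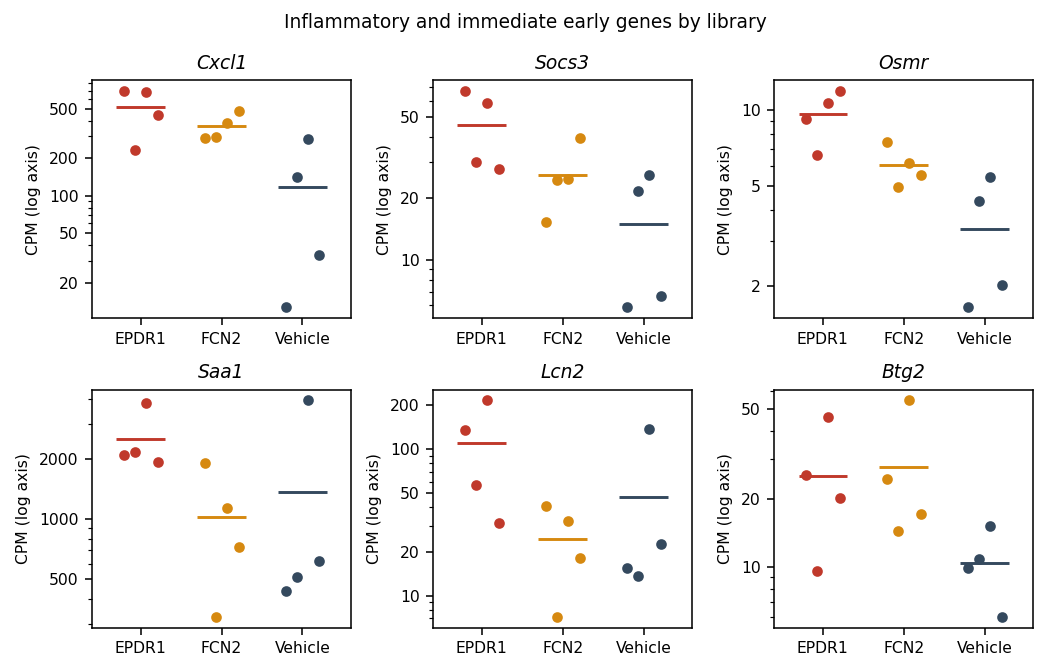
CPM (log axis) of 6 inflammatory and immediate early genes in the 4 EPDR1, 4 FCN2 and 4 vehicle libraries; points are libraries, in replicate order within a group, and bars are group means. For Saa1 and Lcn2, vehicle replicate 3 (3929 and 136.6 CPM) lies among or above the injected libraries, and for each of the 6 genes the groups overlap.

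Metabolic lists had medians on both sides of that of all tested genes (0.017), and edgeR called none of their members. Drug-metabolizing P450 genes (20 tested) and Slc25 mitochondrial carriers (36 tested) each had a median log2 fold change of -0.143, which for the carriers was 0.01 with the GC and length trend removed. Glycolysis and glycogen genes (16 tested) were at -0.13, gluconeogenesis and fasting genes (14 tested) at 0.121, and urea cycle and amino acid breakdown genes (16 tested) at 0.11. Nuclear genes of oxidative phosphorylation (75 tested) had a median of 0.005, and glutathione and antioxidant genes (24 tested) a median of 0.006. Cholesterol synthesis and uptake (25 tested) was at -0.032, and PPAR-alpha targets and fatty acid oxidation (26 tested) at -0.022. Heat shock genes (13 tested) had a median of -0.276, and 0.079 without vehicle replicate 2. The 7 tested genes of the mitochondrial genome all lay above 0 (median 0.364), and their median was 0.019 once the GC and length trend was removed. Major urinary proteins, male-biased secreted carriers whose genes are close copies and share reads, had a median of -0.413 over 20 genes, 17 of them below 0, with none called, and -0.685 with the GC and length trend removed. Kupffer cell markers, which mark the resident macrophages of the liver, had a median of -0.408 over 12 genes, 10 of them below 0 and 0 passing, and -0.644 with all 12 below 0 without vehicle replicate 2. They summed to 193 to 325 CPM in the EPDR1, 134 to 352 CPM in the FCN2 and 210.0 to 522 CPM in the vehicle libraries. No defining marker was at 0 in all 12 libraries.

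**Figure D4:**
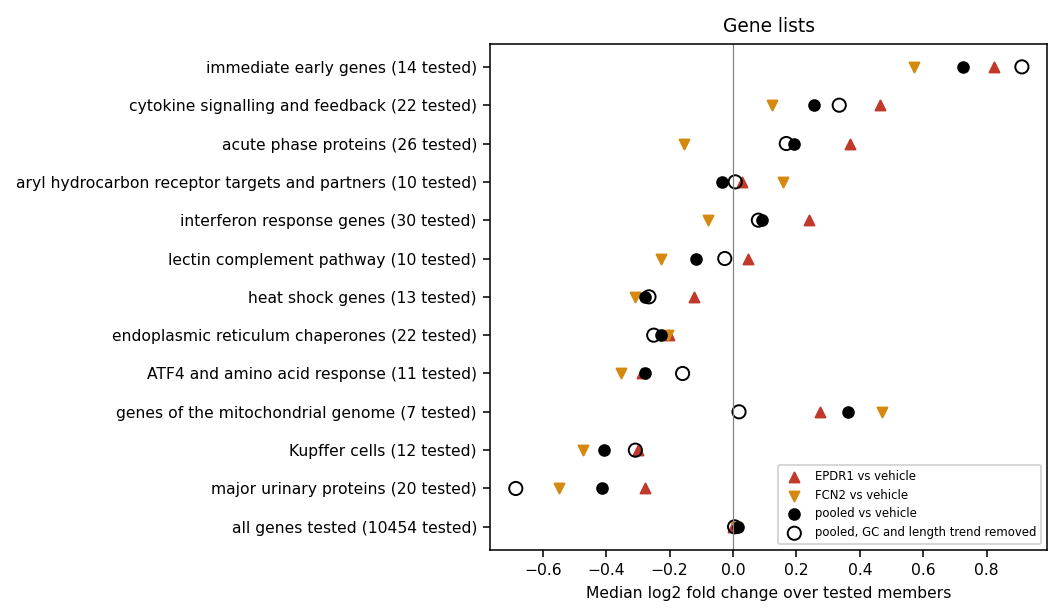
Median log2 fold change over the tested members of 12 gene lists and over all tested genes; triangles give EPDR1 and FCN2 each against vehicle, filled circles the pooled comparison and open circles the pooled comparison with the GC and length trend removed. Immediate early genes had the highest pooled median (0.724) and major urinary proteins the lowest (-0.413).

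As a check, the mouse counterparts of both proteins were read. Epdr1 had 4 reads in the EPDR1, 4 in the FCN2 and 8 in the vehicle libraries in all, too few to test. Fcnb had 0 reads in all 12 libraries, which allows a level of up to 0.0468 CPM (3 counts over the 12 libraries; counting error only). Fcna, the mouse ficolin of macrophages, had 19.2, 20.1, 26.5 and 26.1 CPM in the EPDR1 livers and 16.3, 15.1, 8.41 and 14.3 CPM in the FCN2 livers, against 28.8, 19.2, 22.1 and 29.1 CPM in the vehicle livers. Its log2 fold change against vehicle was -0.10 in the EPDR1 livers (edgeR adjusted p = 0.93) and -0.84 in the FCN2 livers (edgeR adjusted p = 0.0151). The FCN2 comparison called 7.92% of tested genes lower. The pooled value was -0.43 ± 0.22 (edgeR adjusted p = 0.309). The difference between both proteins was 0.74 ± 0.21 (edgeR adjusted p = 0.0771) and did not pass. Fcna has a GC content of 54.8%. With the GC and length trend removed the difference was 0.48 (edgeR adjusted p = 0.551), and Fcna was no longer called for FCN2. Injected protein would not be seen in RNA counts.

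How alike the 2 protein groups were was asked next, since pooling treats them as 1. Against the same vehicle libraries, FCN2 alone gave 1420 called genes (13.6% of those tested; 592 higher, 5.66%, and 828 lower, 7.92%), and EPDR1 alone gave 0 in edgeR, 824 at an unadjusted p under 0.05, 4 in DESeq2 and 0 in limma-voom. Compared directly, 32 genes differed between EPDR1 and FCN2 livers (0.306%), 14 higher (0.134%) and 18 lower (0.172%) in the EPDR1 livers. DESeq2 called 346 and limma-voom 1. The 1420 fell to 324 without vehicle replicate 2, 369 without FCN2 replicate 4, 664 without vehicle replicate 1 and 899 without vehicle replicate 3. The 32 became 202 without FCN2 replicate 3, 59 without EPDR1 replicate 4, 55 without FCN2 replicate 1 and 0 without any 1 of the other 9 libraries.

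The 5 highest in EPDR1 were Bola2 (1.33 ± 0.25), Ncln (1.14 ± 0.21), Scrn2 (1.11 ± 0.22), Vps52 (1.05 ± 0.21) and Mbd3 (0.93 ± 0.18), all at an edgeR adjusted p of 0.047 as log2 EPDR1 over FCN2. Ncln, a membrane protein of the endoplasmic reticulum, had 21.02, 17.4, 12.96 and 19.5 CPM in the EPDR1 livers, 9.68, 5.29, 9.81 and 6.59 CPM in the FCN2 livers and 22.03, 19.99, 15.1 and 21.04 CPM in the vehicle livers. The EPDR1 and vehicle ranges overlapped, and the FCN2 livers lay below both. Mbd3, a subunit of the NuRD chromatin complex, had 20.1, 21.9, 17.5 and 22.1 CPM in the EPDR1 livers, 12.03, 10.2, 12.3 and 8.12 CPM in the FCN2 livers and 25.1, 30.99, 21.3 and 24.4 CPM in the vehicle livers. The 5 lowest were Zfp763 (-1.37 ± 0.29, edgeR adjusted p = 0.0485), Zfp942 (-0.89 ± 0.17), Lypla1 (-0.86 ± 0.18), Pde3b (-0.79 ± 0.15) and Tmem123 (-0.78 ± 0.16), the last 4 at an edgeR adjusted p of 0.047. Pde3b, the phosphodiesterase through which insulin lowers cyclic AMP, had 74.4, 112, 94.1 and 99.4 CPM in the EPDR1 livers, 152, 182, 130.0 and 192 CPM in the FCN2 livers and 101, 106, 98.5 and 108 CPM in the vehicle livers. Here the FCN2 livers lay above both other groups, whose ranges overlapped.

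These differences moved with base composition. All 14 genes higher in EPDR1 had a GC content above the median of tested genes and all 18 lower ones had one below it. With the GC and length trend of each library removed, 0 genes differed between the proteins in edgeR, and 918 had an unadjusted p under 0.05; no other tool was run with the trend removed. The trend was read in each library as Spearman's rho, across genes, between GC content and the library's log2 deviation from the mean of the 12. It was -0.04 to 0.276 in the EPDR1 libraries, -0.673 to -0.306 in the FCN2 libraries and 0.311 to 0.529 in the vehicle libraries. The 3 ranges did not overlap, with FCN2 lowest, EPDR1 between and vehicle highest. The trend thus followed the group. The labels give all 12 libraries the same batch and preparation and nothing that would separate the trend from the group, so both cannot be told apart.

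In the pooled comparison the median log2 fold change was 0.228 in the 25% of genes with the lowest GC content (up to 45%), 0.09 in the next 25%, -0.072 in the 25% above the median and -0.29 in the 25% with the highest (above 53.9%). For FCN2 alone the same medians were 0.345, 0.131, -0.128 and -0.473, and 453 of the 592 genes called higher were in the lowest 25% while 696 of the 828 called lower were in the highest. For EPDR1 alone they were 0.087, 0.034, -0.018 and -0.119. After the trend was removed the pooled medians lay between -0.02 and 0.018. The calls of FCN2 then numbered 19 (0.182%), 12 higher (0.115%) and 7 lower (0.067%), without Fcna, and those of EPDR1 0 (716 at an unadjusted p under 0.05). The plot of fold change by GC content shows both states.

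**Figure D5:**
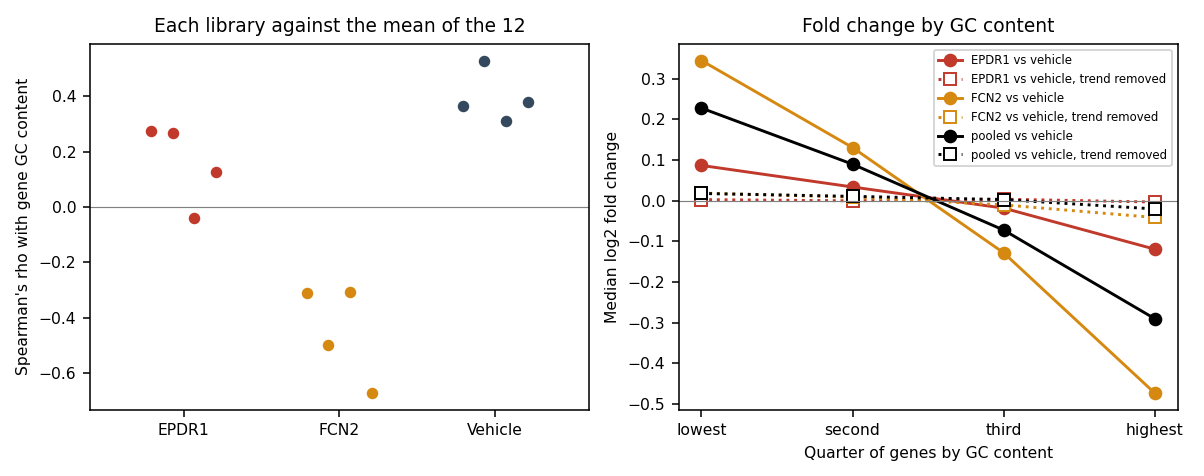
Left, Spearman's rho across genes between GC content and each library's log2 deviation from the mean of the 12 libraries, 1 point a library. Right, median log2 fold change in 4 equal bins of genes by GC content for EPDR1, FCN2 and both pooled against vehicle, as fitted (filled) and with the GC and length trend removed (open); the pooled medians run from 0.228 in the lowest bin to -0.29 in the highest as fitted.

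The same lean held for every looser way of calling the pooled comparison that was counted. Of the 54 genes that DESeq2 called higher, 47 had a GC content below the median, and of the 43 called lower, 43 had one above it. Of genes whose 8 and 4 libraries did not overlap, 90 of 99 higher ones lay below the median and 116 of 123 lower ones above it. When the 2 proteins were given a mean each and the average of both was tested against vehicle, 184 genes were called (1.76%), 49 higher (0.469%) and 135 lower (1.29%); 43 of the higher ones lay below the median and 132 of the lower ones above it. With the trend removed that count was 1, again Derl3 (edgeR adjusted p = 0.0455).

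With the GC and length trend removed, the pooled gene next to Derl3 by p was Ip6k2, an inositol hexakisphosphate kinase, chosen after its values were seen. It had 66.8, 58.4, 66.2 and 56.8 CPM in the EPDR1 livers and 71.1, 47.6, 58.9 and 60.8 CPM in the FCN2 livers, against 33.7, 33.9, 41.1 and 50.1 CPM in the vehicle livers. Vehicle replicate 4 was the highest vehicle liver, and FCN2 replicate 2 lay just below it. The log2 fold change was 0.76 with the trend removed (edgeR adjusted p = 0.0847) and 0.63 ± 0.14 as fitted (edgeR adjusted p = 0.121). Its size was larger with the trend removed than as fitted. Ip6k2 was also among the 19 genes called for FCN2 after removal, as were Derl3, Atpif1, Tspo, Dad1, Serpina6 and Irf2bp2. Atpif1, the inhibitor of the mitochondrial ATP synthase, had 19.4, 20.4, 16.6 and 17.5 CPM in the EPDR1 livers and 27.3, 21.2, 19.9 and 22.4 CPM in the FCN2 livers, against 13.4, 12.4, 14.3 and 14.03 CPM in the vehicle livers. All 8 injected livers lay above the vehicle range, the FCN2 ones higher on average, and the pooled log2 fold change was 0.63 (edgeR adjusted p = 0.132), or 0.73 with the trend removed. Tspo, the cholesterol-binding protein of the outer mitochondrial membrane, had 15.02, 20.7, 10.1 and 13.5 CPM in the EPDR1 livers and 10.3, 6.43, 9.25 and 6.15 CPM in the FCN2 livers, against 20.4, 23.9, 17.9 and 26.4 CPM in the vehicle livers, with the FCN2 livers below all vehicle livers. Its pooled log2 fold change was -0.96 (edgeR adjusted p = 0.132), or -0.72 with the trend removed.

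A pair of further genes were chosen after their values were seen. Dmbt1, a scavenger receptor of mucosal surfaces and bile duct cells, had 12.5, 2.098, 2.25 and 12.2 CPM in the EPDR1 livers and 10.3, 6.43, 7.57 and 11.9 CPM in the FCN2 livers, against 1.64, 0.903, 2.33 and 0 CPM in the vehicle livers. EPDR1 replicates 2 and 3 lay within the vehicle range and the other 6 injected livers above it, and the log2 fold change was 2.89 ± 0.59 (edgeR adjusted p = 0.121; DESeq2 adjusted p = 0.000264). Cholangiocyte markers (8 genes) summed to 50.0 to 167 CPM in the EPDR1, 54.8 to 101 CPM in the FCN2 and 55.0 to 74.1 CPM in the vehicle libraries. None of them was at 0 in all 12 libraries, and their part in Dmbt1 was not tested. Cycs, the electron carrier cytochrome c, had 23.1, 17.7, 22.5 and 33.3 CPM in the EPDR1 livers and 33.3, 24.9, 28.3 and 36.9 CPM in the FCN2 livers, against 8.904, 12.8, 16.7 and 19.04 CPM in the vehicle livers. EPDR1 replicate 2 lay below vehicle replicate 4, and the log2 fold change was 0.98 ± 0.21 (edgeR adjusted p = 0.121; DESeq2 adjusted p = 0.0114).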

How the data were processed

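Each library was made from 800 ng of liver RNA with a Hyper-prep kit and sequenced paired-end, per the labels' protocols. The deposited values are raw counts of reads per gene, analysed without further change. The submitters' processing notes name STAR 2.6.0c, featureCounts 1.6.3 and GRCm38, and the file headers give annotation release Ensembl 95 and no strand option. Overlapping and antisense genes therefore cannot be told apart by these counts. Of 54838 genes, 54723 were given a symbol.

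The filter filterByExpr left 10454 genes. TMM scaling and the robust quasi-likelihood fit of edgeR 4.0.16 (R 4.3.3) followed, with the 8 injected libraries as 1 group against 4 for the pooled comparison and 3 group means for the others, and genes under an adjusted p of 0.05 were called. The common dispersion was 0.0424 in the pooled fit and 0.0359 with group means. The code was tested on simulated data. No pair of replicates (18 pairs) came as close as sampling noise, with a chi-square over its degrees of freedom of 8.87 to 23.4. Alternatives were DESeq2 1.42.0, limma 3.58.1 (voom), other filters and scalings, a common depth, removal of each library's GC and length trend by lowess, a replicate block, more libraries, other vehicles and leaving out each library. Genes named by rule were Derl3, the 3 smallest p-values of the acute phase, cytokine and aryl hydrocarbon receptor lists, the mouse genes of the proteins, and 5 and 5 genes between the proteins; all other genes were chosen after their values were seen. The groups, gene lists and comparisons were chosen with earlier results of these data known. Promoter windows are from RefSeq (GRCm38.p6), which held 19 of 25 genes looked up. 1 gene near the threshold is not reported here.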

Additional observations from a re-analysis of the deposited data

Results flagged for a closer look

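Sets of 4 libraries numbered 144, of which those of Fcnb (0 reads) could not be checked for a value far from the other 3. In 12 sets there was one, where chance gives about 1 in 20 for independent sets. The sets share libraries and are not independent. Vehicle replicate 2 stood apart in its total counts (21892416), in Hspa5 (2914 CPM) and in Wsb1 (36.7 CPM, the lowest). Vehicle replicate 3 stood apart in the acute phase genes Saa1 (3929 CPM), Saa2 (2851 CPM) and Lcn2 (136.6 CPM) and was the lowest in Nqo1 (6.21 CPM). Among EPDR1 livers, replicate 3 was far above in Saa1 (3829 CPM), replicate 1 in Vps52 (17.6 CPM), and replicate 2 far below in Cd5l, a Kupffer cell marker (41.1 CPM). Among FCN2 livers, replicate 2 was far above in Hspa5 (2183 CPM) and replicate 4 far below in Vps52 (4.39 CPM).

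The responses to EPDR1 and to FCN2 differed in the direct edgeR test for 32 genes. As log2 EPDR1 minus FCN2, the named ones were Bola2 (1.33), Ncln (1.14), Scrn2 (1.11), Vps52 (1.05) and Mbd3 (0.93) on the higher side. On the lower side were Zfp763 (-1.37), Zfp942 (-0.89), Lypla1 (-0.86), Pde3b (-0.79) and Tmem123 (-0.78). None of the 32 passed with the GC and length trend removed.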

How the results depend on the processing

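The pooled count of 1 gene was 2 with DESeq2 size factors in edgeR, 97 with DESeq2, 327 without a filter on low counts (26430 genes tested; 301 of the 327 were among the 10454), 282 with all libraries except LBP replicate 2, 184 with a mean per protein, 3806 with the vehicles of both batches and 5541 with that of batch 1, where batch and treatment cannot be told apart. It was 0 with limma-voom, at a mean of at least 5 CPM or at a common depth (Derl3 was not tested in either), and with all 23 libraries. Leaving out 1 library gave 0 (vehicle replicate 2) to 29 (EPDR1 replicate 2). Derl3 was lower in every setting that tested it. With the batch 1 vehicle alone as the control it did not pass the filter on low counts and was not tested. It was called wherever tested but for limma-voom (adjusted p = 0.0715), edgeR with all 23 libraries (0.0767) and edgeR without vehicle replicate 2 (0.18). DESeq2 gave it no adjusted p. Between EPDR1 and FCN2 the 32 genes became 346 (DESeq2), 1 (limma-voom), 363 (no filter), 0 (all 23 libraries), 579 (without LBP replicate 2), 6 (common depth), 0 (GC and length trend removed) and 0 to 202 on leaving out 1 library, the highest without FCN2 replicate 3, 59 without EPDR1 replicate 4, 55 without FCN2 replicate 1 and 0 without any other library. EPDR1 alone had 4 (DESeq2) and 73 (no filter) in place of 0. FCN2 alone had 97 (all 23 libraries), 2314 (without LBP replicate 2), 884 (common depth) and 19 (trend removed) in place of 1420, and 324 to 1560 on leaving out 1 library, the lowest without vehicle replicate 2 with 369 without FCN2 replicate 4 and 664 and 899 without vehicle replicates 1 and 3. As a share of calls, higher genes were 19.6% for FCN2 with all 23 libraries and 63.2% with the trend removed, against 41.7%. The causes were not tested. With a replicate block the counts were 1 (pooled), 43 (EPDR1 against FCN2), 0 (EPDR1) and 1460 (FCN2), and with the block and the trend removed 1, 1, 0 and 26. The labels state no pairing of samples by number, and the main fits assumed none. Deviations of same-numbered libraries correlated between -0.132 and 0.248, with 6 of 12 pairs above 0.1. Those of differently numbered libraries correlated between -0.321 and 0.282. For 5 of 12 libraries the own number was the best match in both other groups. Whether the numbers pair the samples was not tested further. Among named genes, log2 fold changes turned sign with both vehicles as the control for Serpina3m (-0.015), Hspa5 (0.38), Nqo1 (0.18) and Dmbt1 (-0.35), and at a common depth for Nqo1 (0.13). On leaving out 1 library they ran from -0.29 to 0.23 for Hspa5, from -0.15 to 2.12 for Saa2 and from -0.28 to 0.10 for Nqo1. Libraries of 2517701 to 21892416 counts limit what can be said of low genes.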

Other observations

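Amino acid stress genes driven by the transcription factor ATF4 lay mostly below vehicle in the pooled comparison. Of 11 tested, 9 were below 0 and 2 above, with a median log2 fold change of -0.279 and none called, and -0.159 with the GC and length trend removed. Shmt2, a mitochondrial enzyme of one-carbon metabolism, had 107, 120.5, 97.2 and 84.5 CPM in the EPDR1 livers and 93.4, 69.6, 87.4 and 75.1 CPM in the FCN2 livers, against 123, 127, 123 and 137 CPM in the vehicle livers. All 8 injected livers were below all vehicle livers, at -0.47 ± 0.13 (edgeR adjusted p = 0.133), and the value was -0.16 with the GC and length trend removed. Sesn2, a stress-induced regulator of nutrient signalling, had 2.08, 2.098, 1.69 and 0.6602 CPM in the EPDR1 livers and 1.47, 2.65, 0 and 0.439 CPM in the FCN2 livers, against 2.58, 4.17, 3.104 and 4.01 CPM in the vehicle livers, with a log2 fold change of -1.38 ± 0.41 (edgeR adjusted p = 0.135). FCN2 replicate 2 lay above the lowest vehicle liver, and the other 7 injected livers lay below it. Atf4 itself was at 0.04 ± 0.12.

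Interferon response genes had a median of 0.09 over 30 tested, 20 above 0 and 10 below, with none called. Rsad2, an antiviral enzyme, had 342, 14.98, 25.9 and 25.1 CPM in the EPDR1 livers and 19.1, 9.83, 21.3 and 15.8 CPM in the FCN2 livers, against 10.3, 7.65, 21.3 and 15.7 CPM in the vehicle livers, a log2 fold change of 2.22 ± 1.19 (edgeR adjusted p = 0.342). EPDR1 replicate 1 was far above all other libraries, and the remaining injected livers overlapped the vehicle range. Metallothionein Mt2, a metal-binding protein, had 233, 71.03, 474 and 231 CPM in the EPDR1 livers and 309.6, 17.8, 258 and 57.1 CPM in the FCN2 livers, against 10.1, 6.32, 143 and 33.1 CPM in the vehicle livers, with 2.18 ± 1.06 (edgeR adjusted p = 0.299). Vehicle replicate 3 lay above EPDR1 replicate 2 and FCN2 replicates 2 and 4. Among Kupffer cell markers, the scavenger receptor Marco had 17.8, 8.69, 9.29 and 34 CPM in the EPDR1 livers and 44.6, 6.805, 15.7 and 9.88 CPM in the FCN2 livers, against 14.1, 26.8, 50.05 and 117 CPM in the vehicle livers. Its ranges overlapped, and its log2 fold change was -1.42 ± 0.62, and -0.64 without vehicle replicate 4, the highest library.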
